A study of Mus musculus with 10 samples.

Results

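The matrix-remodeling metalloproteinase families and their inhibitors were followed through the ear-skin endothelium of mice lacking Tie receptors in lymphatic endothelial cells (LECs) and of mice given Ang2-blocking antibodies. The members were taken by gene symbol (Adam, Mmp or Timp followed by a digit, and symbols starting with Adamts). This gave 83 genes of the 42566 on the plates, of which 33 were ADAM, 18 ADAMTS, 5 ADAMTS-like, 23 MMP and 4 TIMP genes, and 82 genes of the 32285 in the 10x matrices, where Mmp1a had no row.

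The LECs were sorted from ear skin into plates as CD31+ PDPN+ CD45- CD11b- Ter119- cells and sequenced well by well with smart-seq, with 2 plates for each of 4 groups. Tie1iΔLEC mice carried Prox1CreERT2 and Tie1fl/fl, and Tie1Tie2iΔLEC mice carried Prox1CreERT2, Tie1fl/fl and Tie2fl/fl; their controls were Cre-negative littermates with the same floxed alleles (Tie1fl/fl or Tie1Tie2fl/fl). All 8 plates, controls included, came from pups given 4-hydroxytamoxifen from P1 to P5, and the study analyzed them on P28. The first plate of Tie1fl/fl and of Tie1iΔLEC was from female mice and all other samples were from male mice. Prox1CreERT2 acts in cells that express Prox1, which marks LECs and some cell types outside the vasculature. The number of mice per plate is not given in the sources used here, so p-values measure the spread between plates. In the second experiment, wild-type C57Bl/6j males received 20 mg/kg of Ang2 Ab or mouse IgG every 3 days between P16 and P21, and CD31-sorted cells were run as 1 10x library per treatment. The Ang2 Ab library carries the word "control" in its title, and both 10x samples are labeled with an age range that begins at P1; the treatment label was used.

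Metalloproteinases of these families are zinc-dependent enzymes that cut the extracellular matrix and the outer parts of membrane proteins. ADAMs are anchored in the membrane and shed growth factors, adhesion molecules and receptors. ADAMTS proteases are secreted, bind the matrix through thrombospondin repeats and cut proteoglycans such as versican and aggrecan, whereas ADAMTS-like proteins share the repeats without the catalytic part. MMPs cut collagens, fibronectin and laminins, and some of them are held at the cell surface. TIMPs block these enzymes by binding their active sites. In lymphatic vessels, the matrix and its anchors to LECs bear on how a vessel fills and on how valves form.

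Adamts1 and Adamts9, both secreted versican-cleaving proteases, were the members that passed the test in the Tie1/-2 deletion, and their promoters (300 bases, from 250 before to 50 after the annotated start, RefSeq, GRCm38.p6) are shown for that reason. Both genes lie on the minus strand. The Adamts1 window is chr16:85803064-85803363 and the Adamts9 window is chr6:92943485-92943784; each is written 5′ to 3′ along the gene, and capitals mark a match to TATAAA.
Adamts1: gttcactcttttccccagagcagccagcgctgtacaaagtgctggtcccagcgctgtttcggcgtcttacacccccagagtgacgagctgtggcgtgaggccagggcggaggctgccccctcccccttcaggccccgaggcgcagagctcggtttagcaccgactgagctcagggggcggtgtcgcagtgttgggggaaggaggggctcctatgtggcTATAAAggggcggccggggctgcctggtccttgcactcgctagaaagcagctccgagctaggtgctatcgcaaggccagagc
Adamts9: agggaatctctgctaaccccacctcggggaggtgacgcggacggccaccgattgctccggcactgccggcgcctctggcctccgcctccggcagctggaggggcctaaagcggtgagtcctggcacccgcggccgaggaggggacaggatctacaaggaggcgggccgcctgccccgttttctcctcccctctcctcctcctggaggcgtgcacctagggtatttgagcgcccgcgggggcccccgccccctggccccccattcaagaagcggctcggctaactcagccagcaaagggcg

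The Adamts1 match starts at position -32 from the start site, and the Adamts9 window held none. TATAAA or its complement TTTATA, a search added after the sequences were read, occurred in 13.6% of all 32851 promoters and in 26.3% of the 57 promoters of the 52 members with an entry. The members with it include Mmp1a, Mmp1b, Mmp3, Mmp7, Mmp8, Mmp10, Mmp12, Mmp13 and Mmp20, which lie together on chromosome 9. The AP-1 letters TGAGTCA or TGACTCA occurred in 5.20% of all promoters and in 10 promoters of members (17.5%). Among these were Mmp1a, Mmp1b, Mmp3, Mmp7, Mmp10, Mmp12 and Mmp13, of the same stretch of chromosome 9. The FoxO letters TGTTTAC or GTAAACA occurred in 3.65% of all promoters and in 5 promoters of members (8.77%). Neither the Adamts1 nor the Adamts9 window held either of these motifs in those letters.

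Of 3048 wells on the plates, 3026 had at least 1000 detected genes, and 2764 remained as LECs (305 to 364 per plate, with 67792749 to 106199099 counts) after a fibroblast-like cluster of 239 wells and a keratinocyte-like cluster of 23 wells were removed. The LEC marker list was detected in full on all 8 plates and summed to 8504 to 9865 counts scaled to a common library total (CPM). Tie1, the targeted gene of both strains, was at 2333 to 2707 CPM on the 4 control plates and at 470 to 705 CPM on the 4 deleted plates. Tek, which encodes Tie2, was at 225 to 322 CPM on the control plates, at 218 and 236 CPM on the Tie1iΔLEC plates, and at 30.4 and 54.1 CPM on the Tie1Tie2iΔLEC plates. A list of 6 cartilage markers summed to 272.7 to 554.5 CPM on the 6 other plates, with 0 to 4 of its genes at 0, and to 5.81 and 10.0 CPM on the Tie1Tie2iΔLEC plates, with 4 and 1 at 0. The fibroblast list summed to 119 and 184 CPM on the Tie1Tie2iΔLEC plates, inside the range of 70.8 to 336.9 CPM on the others. Its genes did not move together. Col1a1 was at 39.0 and 27.7 CPM on the Tie1Tie2fl/fl plates and at 1.96 and 8.80 CPM on the Tie1Tie2iΔLEC plates. Col1a2 was at 48.8 and 8.51 against 3.79 and 8.41 CPM, and Col3a1 at 84.2 and 32.5 against 108 and 135 CPM. The mural list was at 171 and 150 CPM on the Tie1Tie2iΔLEC plates and at 10.9 to 71.5 CPM elsewhere.

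The members with the highest levels in LECs were the inhibitors Timp3 and Timp2. Levels are compared between genes as CPM per kilobase of exon, over all 8 plates. Timp3, a TIMP that stays bound to the matrix, was at 248 ± 39.7 (SD, n = 8), and Timp2, which binds MMP14 in the complex that activates pro-MMP2, was at 207 ± 47.3. Mmp14, the membrane-type collagenase MT1-MMP, followed at 59.5 ± 18.3, and Mmp2, a gelatinase that cuts denatured and basement membrane collagen, at 51.9 ± 21.9; within each of these pairs, the SDs overlapped. Adam10, the sheddase that acts on Notch receptors, was at 42.7 ± 6.81, and the ADAMTS-like gene Adamtsl4, a binding partner of fibrillin, at 26.1 ± 13.2.

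Adam15 (18), Adamts10 (17.7), Mmp19 (16.2), Mmp11 (15.0), Timp1 (13.4) and Adam9 (13.0) completed the first 12 by this measure, with Adam17 (12.9), the TNF-converting enzyme, and Adamts1 (12.6 ± 8.80) next. Each of these 8 had an SD range that overlapped that of its neighbours in the order. Timp3 shares 1733 exonic bases with Syn3 on the opposite strand, Adam15 shares 1263 and Mmp19 shares 1001 with opposite-strand genes, and strand use in the counting is not given in the sources used here, so reads of each pair could not be told apart. At the other end, 30 members failed the filter on low counts, with mean levels of at most 0.191 CPM (Adamts13, the von Willebrand factor-cleaving protease). The collagenases Mmp1a and Mmp8 and the matrilysin Mmp7 had no count on any of the 8 plates, and the gelatinase Mmp9 was at 0.00859 CPM on average. The remaining 53 members entered the test: 17 ADAM, 13 ADAMTS, 5 ADAMTS-like, 14 MMP and all 4 TIMP genes.

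In the Tie1/-2 deletion, 2 of the 53 members tested were called (edgeR quasi-likelihood test, Benjamini-Hochberg adjusted p under 0.05 over all 19978 genes), and both fell. Over all genes, 230 were called (1.15%), of which 173 were lower (0.866%) and 57 higher (0.285%). In the Tie1 deletion no gene was called (0%) by edgeR, and 865 had an unadjusted p under 0.05. Tie1 itself was not called either, at 2333 and 2707 CPM on the Tie1fl/fl plates and 687 and 624 CPM on the Tie1iΔLEC plates. The lack of calls in that comparison thus does not show a lack of change. By DESeq2, 167 genes and 1 member passed in that comparison.

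Adamts1 (ENSMUSG00000022893, chr16:85793827-85803113, minus strand, GRCm38) was at 91.3 and 70.1 CPM on the Tie1Tie2fl/fl plates and at 4.52 and 2.27 CPM on the Tie1Tie2iΔLEC plates. The Tie1fl/fl plates held 67.2 and 147 CPM and the Tie1iΔLEC plates 74.7 and 76.7 CPM. Both Tie1Tie2iΔLEC plates were thus below all 6 others, with a mean 23.8-fold lower than in their controls (log2 fold change -4.58, SE 0.51, adjusted p = 0.00491, edgeR). The share of LEC wells with at least 1 Adamts1 count, after each well was thinned to 50000 counts, was 0.880% and 2.92% on the Tie1Tie2iΔLEC plates and 16.8% to 35.7% on the others (1.37% and 4.75%, against 24.1% to 61.7%, without thinning). Of the Adamts1 counts that remained on the Tie1Tie2iΔLEC plates, 68.4% and 35.9% came from a single well each.

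Adamts9 (ENSMUSG00000030022, chr6:92772699-92943492, minus strand) was at 22.9 and 23.7 CPM on the Tie1Tie2fl/fl plates, at 16.6 and 15.0 CPM on the Tie1fl/fl plates, at 9.54 and 8.42 CPM on the Tie1iΔLEC plates and at 0.0466 and 0.245 CPM (3 and 27 counts) on the Tie1Tie2iΔLEC plates. The log2 fold change in the Tie1/-2 deletion was -7.24 (SE 0.78, adjusted p = 0.00461, edgeR). On the Tie1iΔLEC plates the gene was below both controls without passing the test (log2 -0.81, SE 0.59, adjusted p = 1.00, edgeR). Adamts9 had counts in 0% and 0.585% of thinned wells on the Tie1Tie2iΔLEC plates, where 0 of 341 wells allows a share of up to 0.880%, and in 5.39% to 23.6% elsewhere. It shares 1805 exonic bases with A730049H05Rik and Gm15737 on the opposite strand. With the fibroblast-like and keratinocyte-like wells kept in the sums, the Adamts9 call was lost (log2 -5.18, adjusted p = 0.113), while that of Adamts1 was kept.

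**Figure D1:**
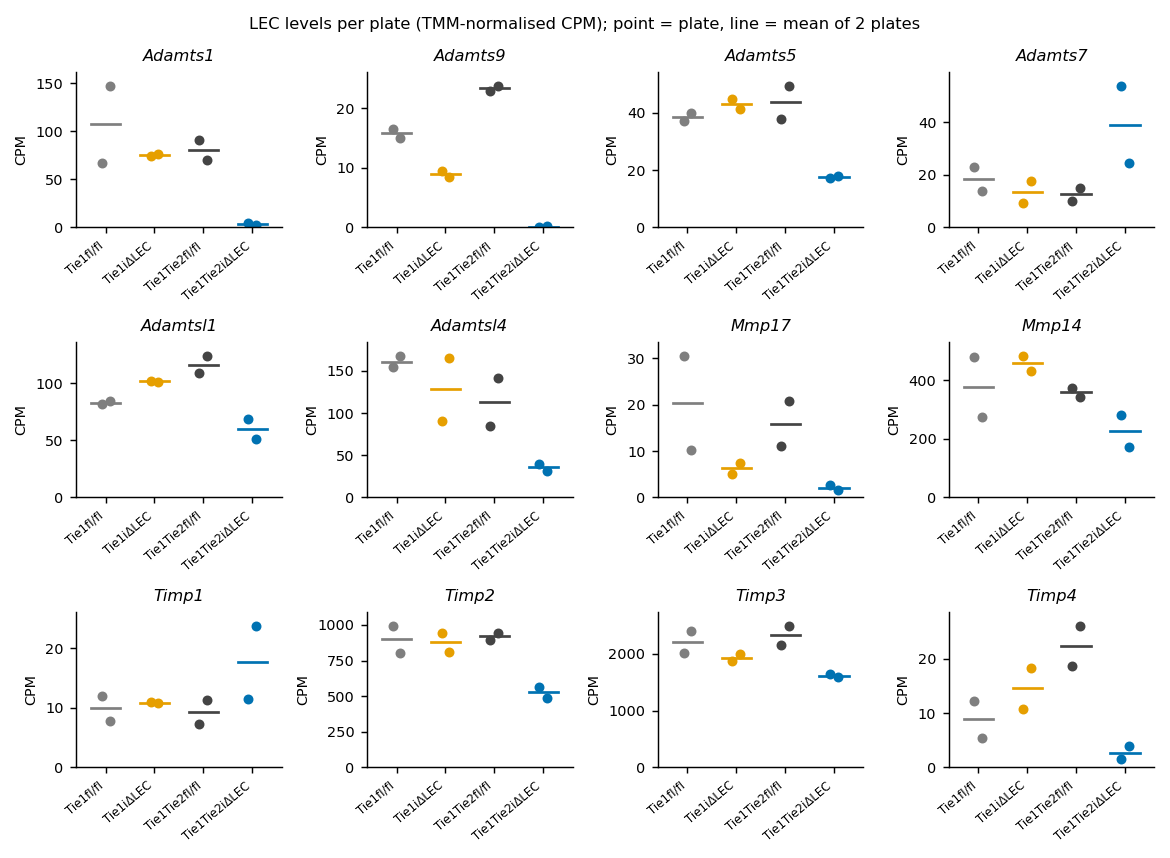
Levels of 12 members in the LECs of each plate, in CPM from 0 on a linear axis with a separate scale per gene; points are plates, lines the mean of 2 plates, and groups are set out along the horizontal axis. Adamts1 and Adamts9 were at 0.0466 to 4.52 CPM on the Tie1Tie2iΔLEC plates and at 8.42 to 147 CPM on all others.

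Adamts1 and Adamts9 belong to the hyalectanases, the ADAMTS proteases that cut large hyaluronan-binding proteoglycans. Of the 6 hyalectanases tested, 2 were called lower (0.866% of all genes), and 4 lay below both controls at least 1.5-fold (15.2% of all genes). Among these 4, Adamts8 was near the floor, at 0.122 and 0.214 CPM against 0.0155 and 0.00906 CPM. Adamts5, the main aggrecanase of mouse cartilage and a versican-cleaving enzyme, was at 37.9 and 49.4 CPM on the Tie1Tie2fl/fl plates and at 17.1 and 17.8 CPM on the Tie1Tie2iΔLEC plates, and missed the threshold (log2 -1.32, SE 0.28, adjusted p = 0.0870, edgeR). Adamts4 differed less, from 25.0 and 27.6 CPM to 17.7 and 23.3 CPM. Adamts15 was at 4.03 and 8.80 CPM in the controls and at 11.2 and 11.4 CPM after the deletion, yet ranged from 0.583 to 19.2 CPM over the Tie1 strain.

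Adamts7, which cuts cartilage oligomeric matrix protein, ran the other way: 10.1 and 15.1 CPM on the Tie1Tie2fl/fl plates, 53.6 and 24.4 CPM on the Tie1Tie2iΔLEC plates, and 9.35 to 23.1 CPM in the Tie1 strain. Every Tie1Tie2iΔLEC value was above the other 6 plates, but the log2 fold change of 1.63 (SE 0.54) had an adjusted p of 0.318 (edgeR). Adamts10, which binds fibrillin, was at 188 and 156 CPM before and 136 and 121 CPM after the Tie1/-2 deletion.

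None of the 5 ADAMTS-like genes was called in the Tie1/-2 deletion, although 4 were lower and 1 higher at an unadjusted p under 0.05, shares that 7.05% and 3.66% of all genes reached. Adamtsl3 was at 8.05 and 19.4 CPM on the Tie1Tie2fl/fl plates and at 0.0155 and 0.0816 CPM on the Tie1Tie2iΔLEC plates (log2 -8.01, SE 1.5, adjusted p = 0.0539, edgeR). Adamtsl4 was at 84.7 and 142 CPM against 40.1 and 30.9 CPM (log2 -1.67, SE 0.37, adjusted p = 0.100, edgeR), and Adamtsl1 at 109 and 124 CPM against 68.3 and 51.4 CPM (log2 -0.96, SE 0.24, adjusted p = 0.152, edgeR). For each of these 3 genes both Tie1Tie2iΔLEC plates lay below the 2 control plates. The remaining lower gene, Adamtsl5, rested on a single control plate, at 4.31 and 0.0712 CPM against 0 and 0.0362 CPM. In the Tie1 strain it was at 0.0266 to 0.293 CPM. Adamtsl2, which binds the latent TGF-β binding protein 1, was the exception, at 0.355 and 1.47 CPM in the controls and 4.61 and 5.04 CPM after the deletion.

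Of the 4 inhibitors, none was called, and 3 were lower at an unadjusted p under 0.05 (edgeR), as were 7.05% of all genes. Timp2 was at 896 and 942 CPM on the Tie1Tie2fl/fl plates and at 566 and 490 CPM on the Tie1Tie2iΔLEC plates, a mean 1.74-fold lower (log2 -0.80, SE 0.19, adjusted p = 0.129, edgeR); the Tie1 strain held 806 to 992 CPM, so that both Tie1Tie2iΔLEC plates lay below all others. Timp3 was at 2157 and 2487 CPM in the controls and at 1640 and 1593 CPM after the deletion (log2 -0.52, SE 0.16, adjusted p = 0.281, edgeR). Timp4, a TIMP with a narrow tissue range, was at 18.7 and 26.0 CPM against 1.52 and 3.87 CPM (log2 -3.05, SE 0.67, adjusted p = 0.0978, edgeR). Timp1, which inhibits most secreted MMPs, was at 7.32 and 11.3 CPM against 11.5 and 23.7 CPM (log2 0.92, SE 0.51, adjusted p = 0.601, edgeR); its plates nearly touched.

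Among the MMPs, 0 of the 6 membrane-type genes and 0 of the other 8 tested were called by edgeR. At an unadjusted p under 0.05, 1 membrane-type gene (Mmp17) and 1 other (Mmp3) were lower, as were 7.05% of all genes. Mmp14 was at 373 and 343 CPM on the Tie1Tie2fl/fl plates and at 281 and 173 CPM on the Tie1Tie2iΔLEC plates, and at 273 to 482 CPM in the Tie1 strain (log2 -0.66, SE 0.32, adjusted p = 0.532, edgeR). Mmp17, a membrane-type MMP held by a lipid anchor, was at 11.2 and 20.7 CPM against 2.58 and 1.52 CPM (log2 -2.96, SE 0.68, adjusted p = 0.120, edgeR), and was also below its controls in the Tie1 deletion (30.5 and 10.1 against 5.07 and 7.46 CPM). Mmp15, another membrane-type MMP, was at 6.14 and 10.8 CPM against 20.7 and 13.5 CPM, with 3.13 to 24.2 CPM in the Tie1 strain. Mmp2 was at 131 and 128 CPM against 200 and 80.9 CPM, so its groups overlapped. The stromelysin Mmp3 was at 7.69 and 2.75 CPM against 0 and 0.0181 CPM (log2 -8.77, SE 2.07, adjusted p = 0.127, edgeR).

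Of the 9 listed ADAM sheddases, none was called in either deletion. At an unadjusted p under 0.05 (edgeR), 1 was higher and 2 lower in the Tie1/-2 deletion (3.66% and 7.05% of all genes). Adam10 was at 273 and 206 CPM on the Tie1Tie2fl/fl plates and at 231 and 216 CPM on the Tie1Tie2iΔLEC plates (log2 -0.10, SE 0.23), and Adam17 at 87.1 and 81.7 CPM against 77.6 and 95.7 CPM (log2 0.04, SE 0.27). Adam15 ranged from 61.9 to 165 CPM over the 8 plates with no separation of the groups. Adam9 was at 75.9 and 59.6 CPM against 44.6 and 24.2 CPM, and Adam12, which sheds HB-EGF, at 17.8 and 13.9 CPM against 28.6 and 35.3 CPM; their adjusted p-values were 0.333 and 0.332 (edgeR). Adam33 was at 14.1 and 30.1 CPM against 4.11 and 3.97 CPM (log2 -2.45, SE 0.61, adjusted p = 0.151, edgeR).

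Counted over the 53 members, 19 lay below and 6 above both controls by at least 1.5-fold in the Tie1/-2 deletion, where 15.2% and 10.6% of all genes did. The 19 include members near the floor. Adam23, Adam3, Adamts8 and Mmp16 were at most at 0.869 CPM on the Tie1Tie2fl/fl and Tie1Tie2iΔLEC plates. Adamtsl5 was at 4.31 CPM on the first Tie1Tie2fl/fl plate and at most at 0.0712 CPM on the others of these plates. In the Tie1 deletion 6 lay below and 8 above, where 7.47% and 9.37% of all genes did. At an unadjusted p under 0.05 (edgeR), 15 members were lower and 3 higher in the Tie1/-2 deletion (7.05% and 3.66% of all genes). In the Tie1 deletion, 2 were lower and 2 higher (1.51% and 2.82% of all genes). The median log2 fold change of the tested members was -0.55 in the Tie1/-2 deletion (0.00 over all genes) and 0.22 in the Tie1 deletion. These counts describe the members that passed the filter on low counts and carry no test of the families as a group.

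**Figure D2:**
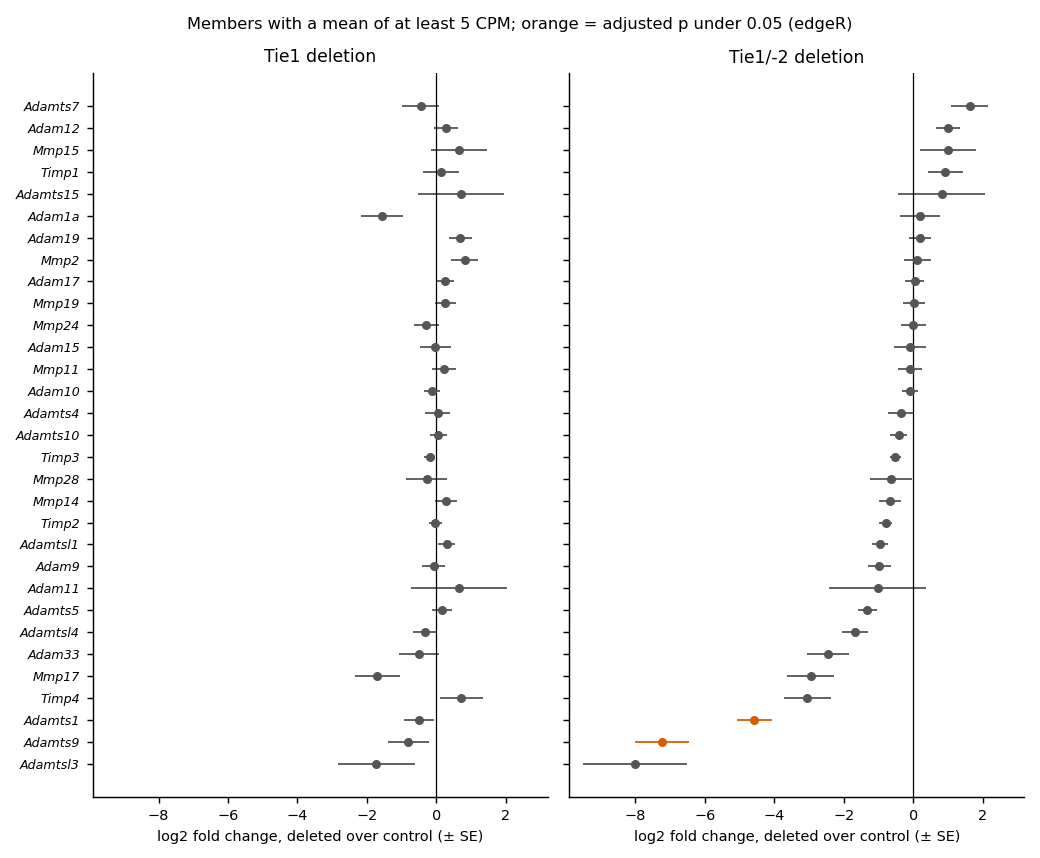
Log2 fold change (deleted over control, bars ± SE, edgeR) of the 31 members with a mean of at least 5 CPM, sorted by the Tie1/-2 deletion, which is shown on the right beside the Tie1 deletion. Adamts1 at -4.58 and Adamts9 at -7.24 are the 2 orange points, past the adjusted threshold; Adamtsl3 at -8.01 is not.

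Several of these genes were also carried by cells outside the LEC compartment. In the 10x libraries, a cluster of 180 cells led by Col2a1, Col9a1 and Acan, left unnamed, held Timp4 at 229 CPM (6.57 CPM in 10x LECs), Mmp3 at 14.3 CPM (0.107 CPM in LECs), Adamtsl3 at 45 CPM (5.29 CPM in LECs), Mmp2 at 390 CPM (24.6 CPM) and Adam33 at 13.6 CPM (3.64 CPM). The cartilage list was lowest on the Tie1Tie2iΔLEC plates. Its sum did not rest on all 6 genes on each plate: the second Tie1iΔLEC plate held 331 CPM with 4 of them at 0. Whether the sum marks such cells was not tested. The part of such cells in the values of Timp4, Mmp3, Adamtsl3 and Adam33 was not tested either. The same cluster held less of Adamts1 (164 CPM) than 10x LECs did (222 CPM), less of Adamts9 (15.2 against 41.5 CPM) and about as much of Timp2 (826 against 841 CPM). Adamts5 was at 28.8 CPM in the cluster and 34.5 CPM in LECs, Adamtsl1 at 50.8 and 75.3 CPM, and Mmp17 at 0.446 CPM in the cluster. Among the named types, fibroblast-like cells had the highest Mmp3 (422 CPM), Adam33 (87.8 CPM), Adamtsl3 (22.9 CPM) and Adamts5 (113 CPM). Adamts1 and Adamts9 were highest in other types. The part of fibroblast-like cells in the plate values was not tested.

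In the Tie1 deletion, no member passed the test, and the lowest adjusted p was that of Adamtsl2 (0.117 and 0.0266 CPM on the Tie1fl/fl plates, 3.82 and 2.78 CPM on the Tie1iΔLEC plates, log2 5.48, SE 1.16, adjusted p = 0.729, edgeR). Mmp2 was at 140 and 172 CPM in the controls and at 230 and 317 CPM after the deletion, and Adam19 at 25.3 and 30.4 CPM against 51.1 and 38.5 CPM. Adam1a was at 13.6 and 10.5 CPM against 3.56 and 4.59 CPM, but shares 4783 exonic bases with genes on the same strand. Each of these had deleted plates clear of both controls, and each had an adjusted p of 1.00 (edgeR). Adamts15 (0.583 and 13.2 against 19.2 and 3.25 CPM), Adam11 (0.138 and 11.4 against 9.35 and 8.81 CPM) and Timp4 (12.2 and 5.43 against 10.7 and 18.4 CPM) had overlapping plates. Timp2 (log2 -0.04, SE 0.19) and Timp3 (log2 -0.20, SE 0.16) were within their spread.

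The difference between the deletions was tested as an interaction, in which 22 of all genes were called (0.11%), all of them lower in the Tie1/-2 deletion, and 0 members by edgeR; 1502 had an unadjusted p under 0.05, and DESeq2 called 443 genes and 7 members. Adamts9 came nearest (log2 -6.43, adjusted p = 0.0652, edgeR), followed by Adamts1 (log2 -4.08, adjusted p = 0.0804, edgeR). Members passed this test under other settings too. With no filter on low counts, 7 of 80 members and 644 of 30591 genes were called. With limma, 1 of 53 members and 26 of 19978 genes were called. Without the second Tie1Tie2iΔLEC plate, 1 of 61 members and 10 of 22031 genes were called. Over the average of both deletions, 2 genes were called by edgeR (0.01%), 1 higher (0.00501%) and 1 lower (0.00501%), and 0 members; 1551 had an unadjusted p under 0.05, and DESeq2 called 600 genes and 6 members.

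The partners of these proteases were read from a list of activators, inhibitors and binding partners. Of 25 genes tested, 1 was called in the Tie1/-2 deletion, as higher (0.285% of all genes). Thbs1, the matrix protein thrombospondin-1, was at 126 and 145 CPM on the Tie1Tie2fl/fl plates and at 1169 and 969 CPM on the Tie1Tie2iΔLEC plates (log2 2.98, SE 0.32, adjusted p = 0.00461, edgeR). Pcsk5, a proprotein convertase, was at 7.35 and 6.44 CPM against 0.574 and 0.272 CPM without a call (adjusted p = 0.0591, edgeR). Furin (91.6 and 86.7 against 88.9 and 91.6 CPM), the convertase that activates many members, had overlapping plates.

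Of 28 substrate genes tested, from a list chosen with earlier results known, 5 were called in the Tie1/-2 deletion, 2 higher and 3 lower (0.285% and 0.866% of all genes). Fn1, encoding fibronectin, was at 1028 and 1044 CPM in the controls and at 3611 and 3245 CPM after the deletion (log2 1.73, SE 0.15), and Lyve1, a hyaluronan receptor, at 1592 and 1602 CPM against 3867 and 3491 CPM (log2 1.20, SE 0.21). Hbegf, a growth factor that ADAMs release from the membrane, was at 23.8 and 34.7 CPM against 0 and 0.0634 CPM (adjusted p = 0.00443, edgeR), and the difference from the Tie1 deletion was called too (adjusted p = 0.0284, edgeR). Procr, the endothelial protein C receptor, fell by 2.02 on the log2 scale (183 and 169 against 52.8 and 34.1 CPM). Efnb2, the ligand ephrin-B2, fell by 2.21 (66.5 and 63.7 against 16.5 and 11.7 CPM). Versican itself (Vcan) was at 0.441 and 0.0916 CPM in the controls and 1.66 and 0.0272 CPM after the deletion.

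Within the LECs, the wells were grouped by marker genes into capillary-like (294), collector-like (357) and valve-like (413) LECs, while 1482 wells fell in clusters that were left unnamed; proliferating and interferon-marked wells made up the rest. Because the classes were made from the same wells, levels across them are a description (CPM of the summed wells, mean ± SD over the 4 control plates). Adamts1 was at 4.65 ± 1.52 CPM in capillary-like LECs, 245 ± 159 CPM in collector-like LECs and 185 ± 49.3 CPM in valve-like LECs. Adamts10 (80.4 ± 53.4, 165 ± 63.9 and 278 ± 35.0 CPM) and Adamts5 (17.9 ± 26.1, 53.3 ± 27.3 and 103 ± 24.7 CPM) had the highest of these 3 means in valve-like LECs. Adamts4 (56.0 ± 31.3, 16.9 ± 3.19 and 6.82 ± 9.30 CPM) and Adamts7 (26.7 ± 21.1, 2.96 ± 3.04 and 0.746 ± 0.387 CPM) had it in capillary-like LECs. In interferon-marked LECs, Adamts7 was at 45.04 ± 43.6 CPM (n = 3). Adamts7 was also among the leading genes of an unnamed cluster of 161 wells, headed by Pgf and Atf3. The part of that cluster in the Adamts7 values of the plates was not tested.

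Timp2 was at 1374 ± 317 CPM in capillary-like LECs, 760 ± 165 CPM in collector-like LECs and 695 ± 174 CPM in valve-like LECs. Timp3 was at 2388 ± 600 and 2425 ± 159 CPM in the first 2 classes and at 1273 ± 126 CPM in valve-like LECs. Mmp14, at 348 ± 83.8, 349 ± 113 and 411 ± 208 CPM, did not differ between classes beyond its spread. Of these 3 classes, Mmp17 had its highest mean in collector-like LECs (35.4 ± 37.9 CPM, against 5.18 ± 7.78 and 1.43 ± 1.03 CPM), with a spread as large as the mean.

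The classes held unequal numbers of wells. Collector-like wells numbered 75 and 64 on the Tie1Tie2fl/fl plates, 9 and 11 on the Tie1Tie2iΔLEC plates and 39 to 60 in the Tie1 strain, while valve-like wells numbered 50 and 54, 64 and 48, and 34 to 66. Values within a class are therefore given beside the sums over all LECs. By staining of pups younger than those of the plates, the study reports that valves were nearly absent from the collecting vessels of the double-deleted mice. In its own clustering of the plates, the study describes collecting-vessel LECs as underrepresented after the double deletion. The valve-like class also included a cluster led by Hbegf, a gene called lower on the Tie1Tie2iΔLEC plates. Whether valve-like wells on the Tie1Tie2iΔLEC plates were the same cell type as those on the control plates was not tested.

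In valve-like LECs, Adamts1 was at 144 and 166 CPM on the Tie1Tie2fl/fl plates (1807 and 2849 counts), at 172 and 256 CPM on the Tie1fl/fl plates, at 124 and 88.5 CPM on the Tie1iΔLEC plates, and at 0.0775 and 0 CPM (1 and 0 counts) on the Tie1Tie2iΔLEC plates. The ratio of the summed counts, deleted over control, was 0.000225 (exact 95% interval 5.7e-06 to 0.00125, counting error only). That interval takes each read as an independent count, although the reads carry no molecular identifiers. It leaves out the spread between wells and plates and is too narrow to that extent. This was 1 of 29 genes called among 14876 in valve-like LECs (0.195%), and the only one of 38 members (adjusted p = 0.000573, edgeR). The difference between the deletions was called there too, as 1 of 7 genes (0.0471%; adjusted p = 0.00415, edgeR). Adamts9 was at 19.3 and 51.1 CPM against 0.0775 and 0.259 CPM in valve-like LECs and missed the threshold (adjusted p = 0.0816, edgeR).

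In collector-like LECs, Adamts1 was at 177 and 178 CPM on the Tie1Tie2fl/fl plates, 143 and 482 CPM on the Tie1fl/fl plates, 215 and 216 CPM on the Tie1iΔLEC plates, and 99.9 and 26.8 CPM on the Tie1Tie2iΔLEC plates, whose first plate had under 10 wells and was left out of the fit (log2 -2.85, SE 0.76, adjusted p = 0.118, edgeR). Adamts9 was at 42.0 and 36.1 CPM against 0 and 0.520 CPM (adjusted p = 0.0567, edgeR). The fit assumed that its lone Tie1Tie2iΔLEC plate varied like the other groups, and its gene counts moved with single control plates. Members were therefore not counted from this fit. In capillary-like LECs, 22 genes (0.16%) and 0 of 38 members were called. An unadjusted p under 0.05 (edgeR) was reached by 9 members and by 1046 of all 13725 genes there. Adamts1 was at 4.00 and 3.5 CPM against 0 and 8.84 CPM in these capillary-like LECs.

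**Figure D3:**
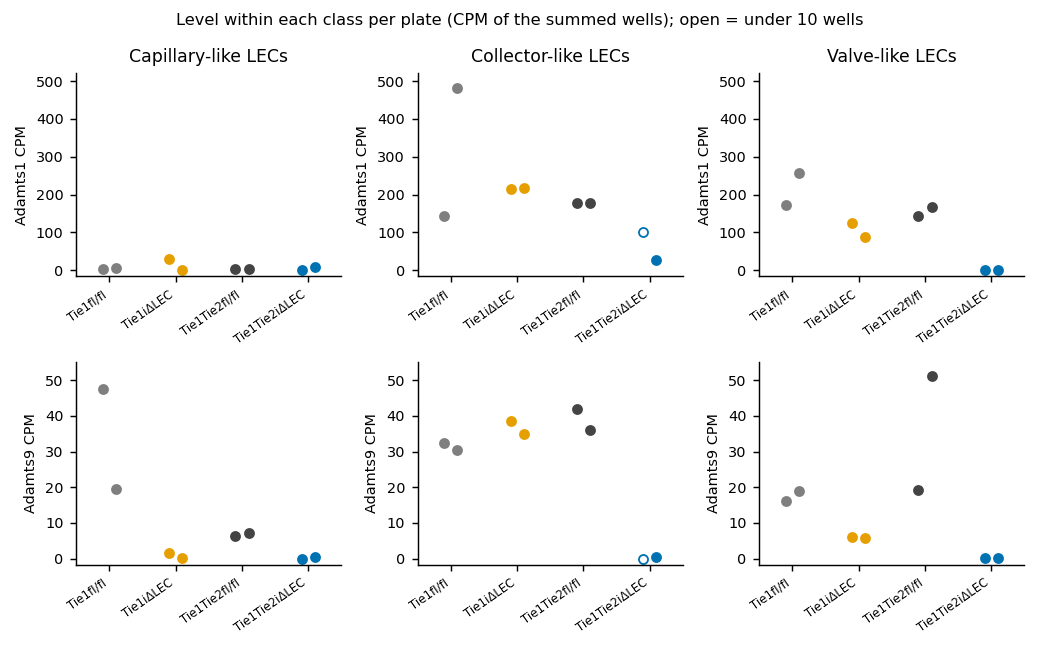
Adamts1 (top) and Adamts9 (bottom) in capillary-like, collector-like and valve-like LECs of each plate, in CPM of the summed wells on a linear axis; each point is a plate and open points rest on under 10 wells. In valve-like LECs the Tie1Tie2iΔLEC plates were at 0 to 0.259 CPM for both genes, and the other plates at 5.74 to 256 CPM.

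The 10x libraries placed the members among the cell types of the CD31 sort. The libraries shared 5 barcodes before filtering and 2 among the cells kept. After filtering and doublet removal, 3418 of 4685 barcodes (IgG) and 2961 of 4331 (Ang2 Ab) remained. They held 1362 and 781 LECs, 1213 and 1182 blood vascular endothelial cells (BECs), and smaller groups of mural-like, fibroblast-like and keratinocyte-like cells. Clusters of 484, 343, 243 and 180 cells were left unnamed and entered neither the LEC nor the BEC sums. That of 343 cells (129 IgG, 214 Ang2 Ab) came closest to the blood vascular list, with 3 of 8 markers raised. Levels here are UMI CPM with both libraries together; clusters were made from the same cells, so they carry no test, and "highest" refers to the named types.

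Of the inhibitors, Timp2 and Timp4 differed most between LECs and BECs. Timp2 was at 841 CPM in LECs and 245 CPM in BECs, while Timp4 was at 6.57 CPM in LECs and 247 CPM in BECs, where it was highest in capillary-like blood endothelial cells at 451 CPM. Timp3 was high in both (1135 and 772 CPM) and highest in mural-like cells at 2612 CPM. Timp1 was at 16.6 CPM in LECs and 13.2 CPM in BECs. Among sheddases, Adam15 was at 28.7 CPM in LECs and 346 CPM in BECs, and Adam10 was highest in capillary-like LECs at 400 CPM.

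The ADAMTS genes were spread over more types. Adamts1 was highest in arterial-like cells (1003 CPM) and was at 540 CPM in BECs and 222 CPM in LECs, and Adamts9 was at 161 and 41.5 CPM. Adamtsl1 was at 75.3 CPM in LECs and 4.82 CPM in BECs, and was highest in valve-like LECs at 123 CPM. Adamts18 was at 31.6 CPM in venous-like cells, 12.7 times its level in the next named type. Adamts12 was at 259 CPM and Adam22, a member without protease activity, at 19.4 CPM in mural-like cells, where both were highest, and Adam12 was highest in proliferating LECs at 61.8 CPM.

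Among the MMPs, Mmp3 was at 422 CPM in fibroblast-like cells, against 5.57 CPM in the next named type and 14.3 CPM in the unnamed cluster led by Col2a1, and Mmp2 was at 788 CPM. Mmp14 was at 168 CPM in LECs and 50.5 CPM in BECs, and Mmp15 the reverse, at 9.96 and 92.8 CPM. Of the 82 members, 24 had no UMI in the LECs of either library.

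**Figure D4:**
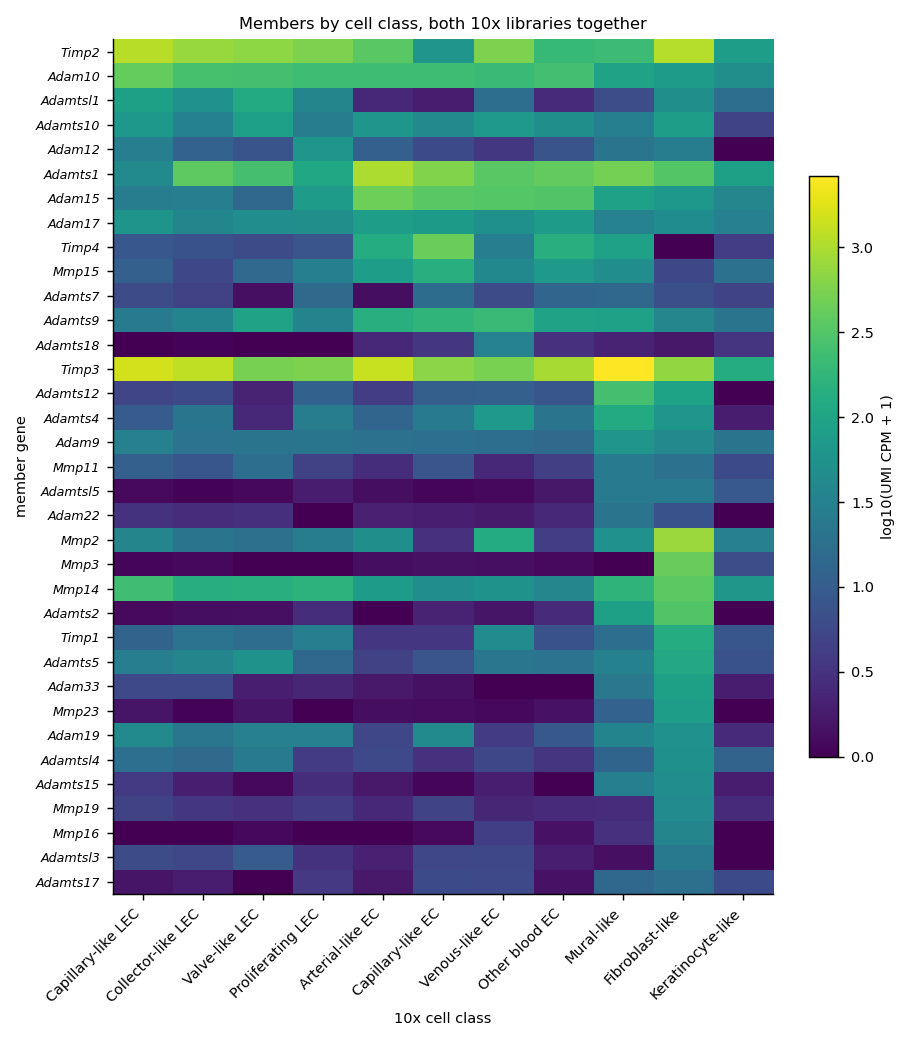
Members that reached at least 15 CPM in some cell class of the 10x libraries, as log10(UMI CPM + 1) with both libraries together; rows are genes ordered by the class of their highest level and columns are cell classes. Timp3 was the brightest row, with 2612 CPM in mural-like cells, and Mmp3 was brightest in the fibroblast-like column, at 422 CPM.

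Ang2 Ab was compared with IgG in LECs and BECs. With 1 library per treatment there is no replicate check and no test; the intervals are exact 95% intervals for counting error only. Of the 26 members with at least 100 UMIs in LECs, 6 were at least 1.5-fold lower and 2 at least 1.5-fold higher in the Ang2 Ab library, past which 3.96% and 3.44% of all genes with that many UMIs lay. The median ratio of the members was 0.993, and that of all genes 1.00.

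Adamts4 was at 16.4 CPM in IgG and 8.20 CPM in Ang2 Ab LECs (ratio 0.499, 0.385 to 0.640). Adamtsl3 had a ratio of 0.506 (0.331 to 0.754), Adamtsl4 of 0.610 (0.488 to 0.758), Mmp2 of 0.621 (0.520 to 0.739) and Adam33 of 0.628 (0.386 to 0.992). Adamts1 was at 252 CPM in IgG and 167 CPM in Ang2 Ab LECs (ratio 0.662, 0.625 to 0.70). Adamts9 was at 45.7 and 33.9 CPM (ratio 0.743, 0.652 to 0.844). On the other side, Adamts7 was at 3.15 and 6.38 CPM (ratio 2.03, 1.40 to 2.96), Mmp15 at 7.39 and 14.7 CPM (ratio 1.99, 1.56 to 2.53), and Adam19, Adamts12 and Mmp14 had ratios of 1.44, 1.38 and 1.22.

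The LEC classes were present in unequal numbers, with 522 collector-like, 470 capillary-like and 259 valve-like cells in the IgG library and 235, 270 and 208 in the Ang2 Ab library. Adamts1 was lower in the Ang2 Ab library within each class, with ratios of 0.229 (0.163 to 0.314) in capillary-like, 0.696 (0.648 to 0.747) in collector-like and 0.745 (0.665 to 0.834) in valve-like LECs. Adamts9 had ratios of 0.308, 0.658 and 0.842, the last with an interval that reached 1.01. Mmp2 had its lowest ratio in valve-like LECs (0.248, 0.130 to 0.441), and Mmp14 was at 1.22 in capillary-like and 0.857 in valve-like LECs. The cartilage list summed to 58.1 CPM in IgG LECs and 32.7 CPM in Ang2 Ab LECs, and the mural list to 122 and 75.9 CPM. The fibroblast list was not lower, at 118 CPM in IgG LECs and 124 CPM in Ang2 Ab LECs. Among the named types, Adamtsl3, Mmp2 and Adam33 were highest in fibroblast-like cells. The part of cells of these lists in the ratios of Adamtsl3, Mmp2 and Adam33 was not tested.

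In BECs, 23 members had at least 100 UMIs, of which 6 were at least 1.5-fold lower and 2 higher, past which 1.63% and 1.23% of all genes lay. Timp1 had the lowest ratio, from 19.6 CPM in IgG to 5.79 CPM in Ang2 Ab BECs (0.296, 0.219 to 0.395). Adamtsl1 (0.360), Mmp2 (0.534), Adamts18 (0.560), Adamts4 (0.570) and Adamts5 (0.616) followed. Adam12 (1.74, 1.19 to 2.57) and Adam19 (1.62, 1.34 to 1.97) were higher. Adamts1 was at 567 and 509 CPM in BECs (ratio 0.897, 0.865 to 0.930), and Timp4 at 235 and 261 CPM (ratio 1.11, 1.05 to 1.17). The mix of BECs differed too, with 269 venous-like cells in IgG and 220 in Ang2 Ab. Their cluster led by Sele held 129 and 76 cells. Of the BEC types, venous-like cells had the highest Timp1 (43.7 CPM), Mmp2 (125 CPM), Adamts4 (66.6 CPM) and Adamts18 (31.6 CPM). The part of this mix in the BEC ratios was not tested.

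**Figure D5:**
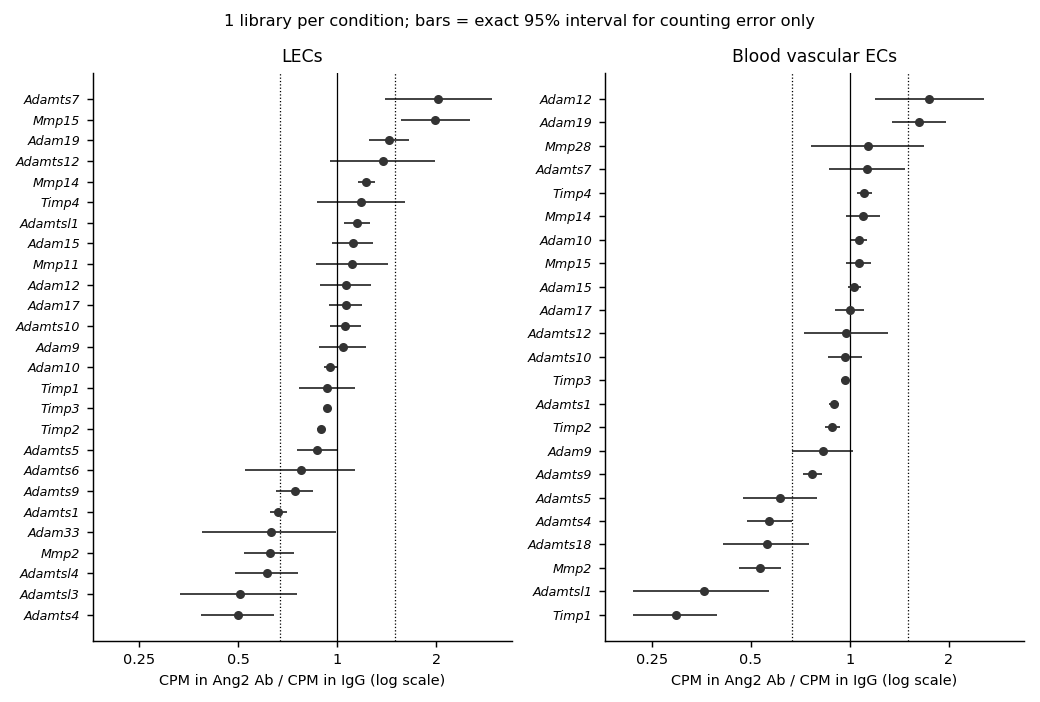
Ratio of CPM in the Ang2 Ab library to CPM in the IgG library on a log axis, for members with at least 100 UMIs in LECs (left, 26 genes) and BECs (right, 23 genes); bars are exact 95% intervals for counting error and dotted lines mark 1.5-fold. Adamts4 sits lowest among LECs at 0.499 and Timp1 lowest among BECs at 0.296.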

How the data were processed

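Counts per gene and well (plates) and UMI counts per gene and cell (10x) were deposited by the authors as whole numbers, without normalization. Per the labels and the study's methods, plate reads were aligned to GRCm38/mm10 with TopHat2 2.1.1 and counted with featureCounts, and well names state that duplicates were removed; 10x reads were processed with Cell Ranger (2.1.1 in the submitters' processing notes, 6.0.2 in the matrix header). Duplicate removal without molecular identifiers compresses high counts. Tissue was digested with collagenase before sorting.

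The 2 layouts of the plate tables (symbols or Ensembl identifiers) were joined to 42566 genes, 790 of them by an older symbol; 92 spike-in rows and 2 transgene rows were left out. Wells with at least 1000 genes, and cells with at least 500 genes and at most 10% mitochondrial UMIs, were clustered (scanpy 1.11.5, 2000 variable genes, 30 components, Leiden resolution 1.0, 12 marker genes of the study left out). A cluster took the name of the list with most markers raised 1.5-fold in at least 10% of cells (at least 3 markers); this rule was set on the data. Scrublet marked 20 IgG and 2 Ang2 Ab cells, and with so few marks the caller cannot be relied on. Members and lists were chosen with earlier results of these data known.

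LEC counts were summed per plate, given as TMM-normalized CPM for the plates (plain CPM within classes and cell types), and tested over 19978 genes with edgeR 4.0.16 (quasi-likelihood, filterByExpr, all 8 plates); alternatives used DESeq2 1.42.0, limma 3.58.1 on the mean CPM per well with a pseudocount of 1 CPM, and each plate left out. The fit was tested on simulated data with 200 changed genes. Named members were those called; the TIMP genes; the 12 highest per kilobase; the 5 highest and lowest fold changes per deletion at a mean of at least 5 CPM and ratios of Ang2 Ab to IgG; and the leading 3 members of each 10x type and the 1 farthest above other types. Adamts5, Adamtsl2, Adamtsl5 and the genes of the partner and substrate lists given with values outside this rule were chosen after their values were seen. A gene of the same naming pattern is not analysed here, and a planned search of protein sequences was not run. Shares and intervals cover counting error only.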

Additional observations from a re-analysis of the deposited data

Results flagged for a closer look

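Adamts1 differed between the deletions in valve-like LECs by a test of the difference itself: the fitted log2 difference was -10.68 (adjusted p = 0.00415, edgeR), a size that depends on the prior count, since the Tie1Tie2iΔLEC plates held 1 and 0 counts. The corresponding contrasts were -11.74 in the Tie1/-2 deletion and -1.06 in the Tie1 deletion. Whether the valve-like wells of the deleted and control plates were the same cell type was not tested. Adamts5 was above both controls on the Tie1iΔLEC plates (37.2 and 40.0 against 44.8 and 41.5 CPM) and below both on the Tie1Tie2iΔLEC plates, with a log2 difference of -1.48 that did not pass the test (adjusted p = 0.359, edgeR). Adamtsl1 was above both controls in the Tie1 deletion (81.6 and 84.4 against 102 and 101 CPM) and below both in the Tie1/-2 deletion, with a log2 difference of -1.25 (adjusted p = 0.371, edgeR). With 2 plates per group, no group was large enough for a test of single outlying plates.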

How the results depend on the processing

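Genes called under each alternative, where the count moved by over 1.5 times, were as follows. For the Tie1 deletion (0 genes), DESeq2 called 167 and no filter on low counts 266. For the Tie1/-2 deletion (230), DESeq2 called 1024, no filter 1184, and leaving out a plate gave 85 to 218, with 85 and 106 without the first and second Tie1Tie2fl/fl plate and 127 without the second Tie1Tie2iΔLEC plate. For the difference between the deletions (22), DESeq2 called 443, no filter 644, the table layout as a term 12, and leaving out a plate 2 to 17, the highest without the first Tie1Tie2iΔLEC plate. For the average (2), DESeq2 called 600, no filter 320, limma 9, the layout term 1, and leaving out a plate 0 to 5. Members called in the Tie1/-2 deletion (2) numbered 14 with DESeq2, 12 with no filter and 6 with limma (342 of 19978 genes). They numbered 1 with no cluster removed (221 of 20490 genes) and 2 to 4 without a plate (4 without either Tie1iΔLEC plate). Members called for the difference (0) numbered 7 with DESeq2, 7 with no filter, 1 with limma (26 of 19978 genes) and 0 to 1 without a plate. Members called for the average (0) numbered 6 with DESeq2 and 3 with no filter. Members called within capillary-like LECs (0) numbered 1 at resolution 2.0, and the number also depended on which plate was left out. These alternatives were chosen after seeing the data. In valve-like LECs 1 member was called at resolution 2.0, and leaving out single plates did not change this. Members are not counted for collector-like LECs, whose main fit held a lone Tie1Tie2iΔLEC plate. Genes called without a plate numbered 34 to 197 in collector-like (236; lowest without the first Tie1Tie2fl/fl plate), 8 to 47 in valve-like (29; lowest without the second Tie1Tie2fl/fl plate) and 12 to 32 in capillary-like LECs (22; lowest without the first Tie1Tie2fl/fl plate). With members left out of clustering they numbered 58, 41 and 25, and at resolution 2.0 they numbered 72, 23 and 46.

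With the replicate number as a block, 178 genes were called in the Tie1/-2 deletion, 9 for the difference and 0 for the average, and 2 members in the Tie1/-2 deletion. Same-numbered plates of a strain shared the table layout and the labeled sex, and their deviations correlated at 0.178 and 0.200, but no label says that a number marks a shared litter, batch or day, and each strain has 2 pairs, so the block was kept as an alternative.

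Of 1178 fold changes of named members, 1149 kept their side of the threshold and 28 newly passed it. In 1 case (Adamts9, no cluster removed) the call was lost, and 0 called values reversed. Only Adamts1 and Adamts9 in the Tie1/-2 deletion were called in the main fit, so most of the 1149 were uncalled values that stayed uncalled. Some of those changed sign and others did not. In the Tie1/-2 deletion, Mmp2 ran from -0.71 to 0.63 and Adamts12 from -1.92 to 3.30 on the log2 scale. Of 96 Ang2 Ab ratios in LECs, 3 left their counting interval, all at a 5% mitochondrial limit (Adamts1 0.701, Adamts9 0.626, Adamts10 1.20). The cause of these shifts was not tested. With 2 plates per group, changes may miss the threshold, large ones included.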
